A study of Mus musculus with 12 samples.

Results

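Fibroblasts from mouse embryos were set on the way to induced pluripotent stem cells with SKO and compared, 8 days after the first infection, with fibroblasts that had received no SKO. The letters are not spelled out in the labels, which tie SKO to the iPS process, and they are taken to stand for Sox2, Klf4 and Oct4, factors used to reprogram cells, of which Pou5f1 encodes the last. Cells came from a cross of OG2 mice with 129/sv, were infected with virus on 2 occasions and were kept in mESC medium, and feeder cells were removed before RNA was extracted. Each arm, with or without SKO, held 3 cultures at day 8. The labels call these control, cluster B and cluster C, where B and C are retroviruses that carry a microRNA cluster and the control is a blank virus, per the series design. Groups rest on the titles and source names, since the description of all 12 arrays is the same and names another sample. The 6 day 8 arrays of the series, out of 12 in all, form the 3 pairs used here, each pair sharing a virus. Each combination had 1 array, so the spread is that of the SKO difference over 3 pairs that differ in virus, and nothing in the labels says that the arms were grown side by side. All titles of the arm without SKO carry the tag Group2, which the labels use for plain fibroblasts, so any other difference between the Group1 and Group2 cultures cannot be told apart from SKO. Below, values of an arm are given in the order control, cluster B, cluster C.

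Reprogramming is known to pass through stages. Fibroblasts first lose mesenchymal genes and gain epithelial ones, a shift often called the mesenchymal-to-epithelial transition, and the network of genes that maintains pluripotency is switched on later and in fewer cells. Oct4 binds an 8-letter DNA element, the octamer, often beside a Sox2 site, and Klf4 binds GC-rich elements near many promoters.

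Expression is given as the deposited log2 value of 1 probe set per gene, so a difference of 1 is a factor of 2. Differences are SKO minus no SKO, with the SE of a limma fit that keeps the virus as a block (n = 3 pairs), and genes were called at a Benjamini-Hochberg adjusted p under 0.05 over the 19938 genes tested. Medians of the 6 arrays lay between 5.03 and 5.07, and their lower quartiles between 3.53 and 3.68. A difference taken from a value below those quartiles is a lower bound. Levels of different genes were not compared, since values are not per length.

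The delivered factors come first, since they test the labels. Among them Pou5f1 lay at 11.63, 11.87 and 11.60 with SKO and at 3.99, 4.17 and 3.35 without it. The difference of 7.86 ± 0.14 corresponded to a 233-fold higher level and was the widest of all genes tested (limma adjusted p = 5.78e-07). Klf4 lay at 8.63, 8.91 and 8.63 with SKO against 7.03, 7.06 and 7.06 without (1.68 ± 0.11). Sox2 lay at 5.77, 6.04 and 7.55 with SKO against 5.18, 4.89 and 4.71 without (1.53 ± 0.37, limma adjusted p = 0.0206). In each case the 3 arrays with SKO lay above the 3 without, and the Sox2 value of the cluster C array stood above the other two. The Sox2 call was lost with a variance trend and robust empirical Bayes (limma adjusted p = 0.162). Whether a probe set reads the delivered copy, the cell's own gene or both was not tested. Myc, which is not part of SKO as read here, was higher by 0.60 ± 0.12.

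With SKO 2655 genes were higher (13.3% of those tested) and 2616 were lower (13.1%), 26.4% in either direction. Counts of list members below are to be read against these shares. All 5271 of these calls had the same sign in the 3 pairs, and 155 of them had arms that overlapped. Over all genes, 25.5% were higher in all 3 pairs and 33.6% were lower in all 3, while arms without any overlap were found for 20.7% of genes on the higher side and 24.2% on the lower side. Large changes leaned upward. A called difference of at least 2 was found for 168 genes on the higher side and 66 on the lower side, and one of at least 3 for 50 and 9. The cluster C pair gave the widest difference for 570 of the 1138 genes called at a size of at least 1, the control pair for 293 and the cluster B pair for 275. Leaving out a pair left between 1773 and 2046 genes higher and between 1507 and 1886 lower. Without the cluster B pair the count of lower genes was 1507, a fall by more than 1.5 times.

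**Figure D1:**
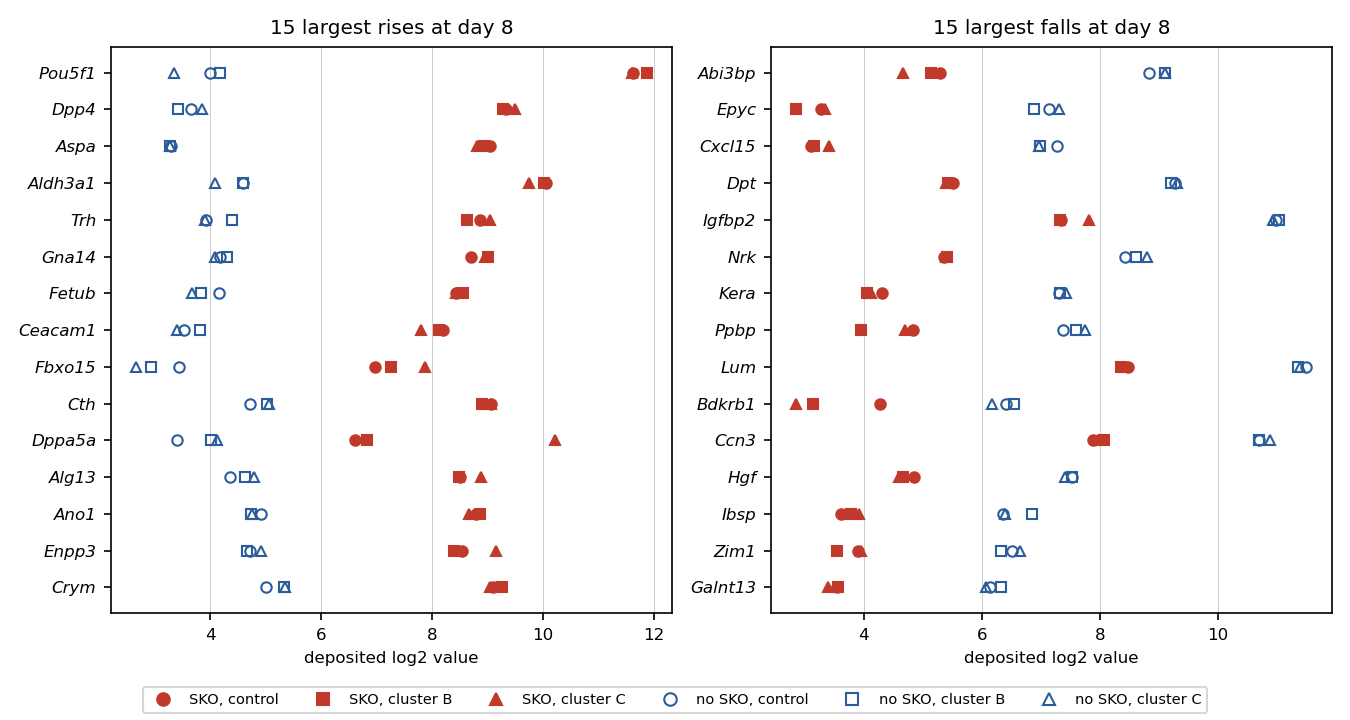
Deposited log2 values at day 8 (horizontal axis) of 15 genes that rose most and 15 that fell most, 1 marker per array, filled for SKO and open for no SKO, with the marker shape giving the virus. Arms do not overlap for any of the 30 genes, which were picked for the size of their change. The cluster C array stands apart from the other arrays with SKO for Dppa5a, at 10.22.

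The 15 largest rises were a mixed group in which few genes belong to the pluripotency network. Dpp4, a membrane peptidase, lay at 9.34, 9.28 and 9.50 with SKO and at 3.65, 3.42 and 3.86 without, a 53.2-fold difference (5.73 ± 0.11). Aspa, which splits N-acetylaspartate, lay at 9.04, 8.94 and 8.81 against 3.29, 3.27 and 3.27 (5.65 ± 0.10). Aldh3a1, an aldehyde dehydrogenase known from the cornea and stomach, lay at 10.05, 10.02 and 9.75 against 4.59, 4.59 and 4.08 (5.52 ± 0.11). The arms of these genes were far apart and the 3 arrays within an arm were close to each other. Trh, the precursor of thyrotropin-releasing hormone, was higher by 4.78 ± 0.17, and Gna14, a G protein subunit, by 4.71 ± 0.11. Fetub, a secreted protease inhibitor, was higher by 4.6 ± 0.13, and Ceacam1, an adhesion molecule of epithelia, by 4.46 ± 0.11. Fbxo15, an F-box gene widely used as a reporter of Oct4 and Sox2 activity, lay at 6.98, 7.26 and 7.87 with SKO and at 3.44, 2.93 and 2.67 without (4.35 ± 0.27). Cth, which makes cysteine from cystathionine, rose by 4.08 ± 0.12. Dppa5a, a gene of embryonic stem cells, lay at 6.61, 6.82 and 10.22 against 3.40, 4.02 and 4.12 (4.04 ± 0.55), so the 3 pairs shared a sign but not a size. Alg13 of the N-glycan pathway (4.03), the chloride channel Ano1 (3.98), the ectonucleotidase Enpp3 (3.94) and the thyroid hormone-binding Crym (3.91) completed the group.

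The 15 largest falls were led by genes of the extracellular matrix. Abi3bp, a matrix protein, lay at 5.29, 5.14 and 4.67 with SKO and at 8.83, 9.11 and 9.11 without (-3.98 ± 0.17). Epyc, a small proteoglycan, lay at 3.27, 2.86 and 3.34 against 7.14, 6.89 and 7.31 (-3.96 ± 0.10). Dpt, dermatopontin, lay at 5.52, 5.42 and 5.39 against 9.27, 9.21 and 9.31 (-3.82 ± 0.10). Levels of Epyc with SKO were below the lower quartile of the arrays, so its difference is a bound. The proteoglycans Kera (-3.19 ± 0.11) and Lum (-3.01 ± 0.10) were in the same group, as was Ibsp, a matrix protein of bone (-2.75 ± 0.13). Lum lay at 8.48, 8.35 and 8.39 with SKO against 11.50, 11.36 and 11.39, an 8.03-fold difference between values well above the median of the arrays. Secreted signals fell as well. Igfbp2, which binds insulin-like growth factors, fell from 10.98, 11.03 and 10.93 without SKO to 7.35, 7.32 and 7.82 with it (-3.48 ± 0.14). The chemokines Cxcl15 (-3.85) and Ppbp (-3.08), the CCN protein Ccn3 (-2.78) and hepatocyte growth factor, Hgf (-2.77), were lower too. Nrk, a kinase (-3.22), Bdkrb1, a bradykinin receptor (-2.95), the imprinted gene Zim1 (-2.70) and Galnt13, which starts O-linked glycans (-2.68), made up the rest.

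Promoters were searched for the octamer ATGCAAAT, for the Sox motif CATTGTT and for the Klf motif CCACACCC, on both strands of the RefSeq window that runs from 250 bases before to 50 after a gene's start (build GRCm38.p6). Such a window was given for 15563 of the genes tested. The octamer stood in 1.9% of all of them, in 52 of the 2106 genes that rose (2.47%) and in 38 of the 1994 that fell (1.91%). Among the 125 genes that rose by at least 2 it stood in 9 (7.2%), and among the 52 that fell by at least 2 in 1 (1.92%). The Sox motif stood in 3.41% of all genes, 3.2% of those that rose by at least 2 and 5.77% of those that fell by at least 2, and the Klf motif in 4.37%, 6.4% and 5.77%. The limit of 2 was set after values had been seen, and the shares are a description with no test. The 5 genes with the largest rise among the 9 are shown with the bases around the octamer, because they are the promoters in which the element known for Oct4 lies near the start of a strongly higher gene. Each runs 5′ to 3′ along the gene's strand and ends before the gene's start, with the octamer or its reverse complement in capitals.
Acsbg1: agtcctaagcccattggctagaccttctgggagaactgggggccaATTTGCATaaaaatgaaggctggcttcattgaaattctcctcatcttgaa
Slc7a11: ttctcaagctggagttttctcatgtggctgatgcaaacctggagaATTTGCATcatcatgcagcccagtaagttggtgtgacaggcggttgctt
Pipox: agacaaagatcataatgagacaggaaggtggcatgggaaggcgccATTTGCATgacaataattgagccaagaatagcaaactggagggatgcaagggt
Egln3: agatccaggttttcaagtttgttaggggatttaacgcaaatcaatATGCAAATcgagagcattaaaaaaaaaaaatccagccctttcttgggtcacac
Tspan8: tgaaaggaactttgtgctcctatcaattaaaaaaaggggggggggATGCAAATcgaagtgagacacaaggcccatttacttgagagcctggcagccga
The windows lie at chr9:54661886-54661980 for Acsbg1, chr3:50443614-50443707 for Slc7a11, chr11:77894015-77894112 for Pipox and chr12:54204001-54204098 for Egln3, all on the minus strand, and at chr10:115817044-115817141 on the plus strand for Tspan8. In Acsbg1 and Slc7a11 the element starts 50 and 49 bases before the gene's start and reads as the reverse complement in both. In Pipox and Tspan8 it starts 195 bases before the start and in Egln3 179.

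Acsbg1, an acyl-CoA synthetase, lay at 8.75, 8.78 and 8.35 with SKO and at 5.01, 5.04 and 4.62 without (3.74 ± 0.10). Slc7a11, the cystine transporter, lay at 7.73, 7.83 and 7.73 against 3.97, 4.27 and 3.93 (3.71 ± 0.11). Pipox, a peroxisomal oxidase (3.53 ± 0.14), Egln3, an oxygen-sensing hydroxylase (3.52 ± 0.16), and Tspan8, a tetraspanin of epithelia (3.24 ± 0.14), were similar in having all arrays with SKO above all without. The remaining 4 were Sinhcaf, a subunit of the Sin3 complex (2.71), the casein gene Csn1s1 (2.20), Sprr2b of the cornified envelope (2.10) and the lipase Liph (2.05). The genes with an octamer, like some others named below, were not named by the rule but picked after their values were seen.

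Pluripotency genes other than the delivered factors moved in part. Of 34 measured, 13 were higher (38.2%, against 13.3% of all genes) and 3 were lower, with a median difference of 0.43. The medians of the 3 pairs were 0.15, 0.10 and 1.19, so most of the shift over the list lay in the cluster C pair. Without that pair the median was -0.02, with 11 genes higher and 4 lower.

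**Figure D2:**
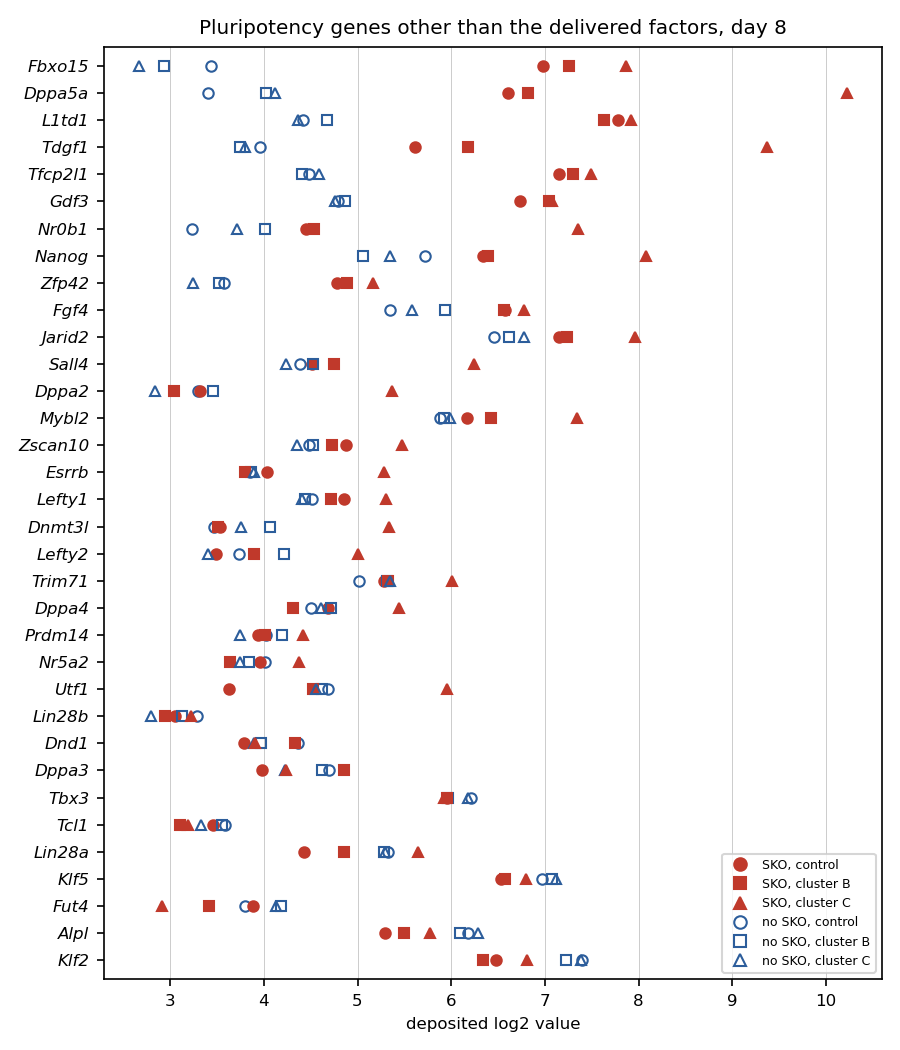
Deposited log2 values at day 8 (horizontal axis) of the 34 pluripotency genes other than the delivered factors, 1 marker per array, filled for SKO and open for no SKO, ordered by the mean difference. The cluster C array with SKO (filled triangle) lies to the right of the other arrays for Tdgf1 at 9.37 and Nanog at 8.08, while the upper genes Fbxo15 and L1td1 are separated in all pairs.

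The transcription factors of the naive network gave 4 rises among 12. Tfcp2l1 lay at 7.15, 7.30 and 7.49 with SKO and at 4.48, 4.41 and 4.59 without (2.82 ± 0.11), the largest rise of the 12. Nanog lay at 6.34, 6.39 and 8.08 against 5.72, 5.06 and 5.35 (1.56 ± 0.34, limma adjusted p = 0.0145). Nr0b1, also known as Dax1, lay at 4.45, 4.54 and 7.35 against 3.23, 4.01 and 3.71 (1.80 ± 0.50). Zfp42, known as Rex1, was higher by 1.51 ± 0.15. Nanog and Nr0b1 shared with Sox2 the high value on the cluster C array, and the Nr0b1 call was lost without the virus as a block (limma adjusted p = 0.0677). Sall4 (0.78), Zscan10 (0.57) and Esrrb (0.50) did not pass, and for Esrrb the values were 4.03, 3.80 and 5.28 with SKO against 3.85, 3.86 and 3.89. Klf5 (-0.42) and Klf2 (-0.79) fell.

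Among early Oct4 targets and chromatin-linked genes, which were listed together, L1td1 lay at 7.78, 7.63 and 7.92 with SKO and at 4.42, 4.67 and 4.36 without (3.29 ± 0.14). L1td1 is an RNA-binding protein of embryonic stem cells. Jarid2, a Polycomb partner, was higher by 0.83 and Mybl2, a cell cycle transcription factor, by 0.71. Dppa2 (0.71), Dnmt3l (0.36), Dppa4 (0.20), Utf1 (0.09), Dppa3 (-0.16) and Tcl1 (-0.24) did not pass. Of the secreted and surface proteins, Tdgf1, the Nodal coreceptor Cripto, lay at 5.61, 6.18 and 9.37 against 3.96, 3.75 and 3.80 (3.22 ± 0.63). Gdf3, a TGF-beta family ligand, was higher by 2.14 ± 0.12, Fgf4 by 1.01 and Lefty1 by 0.50, while Alpl, alkaline phosphatase, was lower by -0.66. None of the 4 RNA-binding proteins passed, Lin28a at -0.32 and Trim71 at 0.31 being the outer values. Bex1 (1.66 ± 0.39) and the claudin Cldn4 (1.41 ± 0.38) were, with Dppa5a, Tdgf1 and Nr0b1, the called genes with the widest range over the pairs, and in all 5 the cluster C array with SKO was the highest of the 6. With a variance trend and robust empirical Bayes, which weighs uneven pairs more, the limma adjusted p was 0.0984 for Dppa5a, 0.174 for Tdgf1, 0.134 for Nanog, 0.241 for Nr0b1, 0.0922 for Bex1 and 0.194 for Cldn4. Without the cluster C pair the calls of Cldn4 (limma adjusted p = 0.0837), Mybl2 (0.0815) and Lefty1 (0.125) were lost, as they were without the cluster B pair (0.0766, 0.0575 and 0.052), where that of Klf5 was lost too (0.129); Klf5 was also lost without the control pair (0.0831).

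The same array carried the signal of microRNA precursor genes. Mir302b lay at 1.77, 2.32 and 7.15 with SKO and at 1.63, 1.79 and 2.86 without, and Mir302a, Mir302c, Mir302d and Mir367 lay at 6.19, 6.38, 6.53 and 4.81 on the cluster C array with SKO. None of the 5 passed; the limma adjusted p was 0.123 for Mir302b and 0.0516 for Mir302d. Mir363 was highest on the cluster B array with SKO, at 5.13 against 2.12 to 3.08 on the other 5 arrays, and did not pass. The labels do not name the microRNAs of the clusters, and delivered and cellular copies cannot be told apart. Of the Mir17 cluster 3 members rose, Mir20a by 0.88 ± 0.14, Mir19b-1 by 0.88 ± 0.13 and Mir19a by 0.75 ± 0.12, while Mir18 (0.87) and Mir17 (0.27) did not pass. Mir19a lay at 3.50, 3.33 and 3.86 with SKO and at 2.81, 2.79 and 2.86 without, near or below the lower quartiles of the arrays. Without SKO, Mir20a (3.92, 3.50 and 3.82) and Mir19b-1 (3.98, 3.63 and 3.77) lay near those quartiles too. These microRNA genes were picked after their values were seen. Mature forms from RefSeq are shown with the seed, bases 2 to 8, in capitals, because the seeds group them across these clusters.
miR-302b-3p: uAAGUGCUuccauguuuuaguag
miR-302d-3p: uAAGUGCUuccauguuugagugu
miR-20a-5p: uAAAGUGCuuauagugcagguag
miR-106a-5p: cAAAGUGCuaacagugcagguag
miR-19a-3p: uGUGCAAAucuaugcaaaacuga
miR-19b-3p: uGUGCAAAuccaugcaaaacuga
miR-367-3p: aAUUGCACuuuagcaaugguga
miR-363-3p: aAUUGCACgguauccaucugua
The pairs miR-302b and miR-302d, miR-20a and miR-106a, miR-19a and miR-19b, and miR-367 and miR-363 each share a seed, and the seeds of the first and second pair overlap by the letters AAGUGC. The array read precursor genes and not mature microRNAs.

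Many epithelial genes were higher with SKO, and the size differed between pairs. Of 28 adhesion and tight junction genes 17 were higher and 1 lower (60.7% higher, median 0.63), with pair medians of 0.35, 0.47 and 1.16. Epcam, an adhesion molecule of epithelia and of pluripotent cells, lay at 7.20, 7.32 and 7.85 with SKO and at 3.89, 4.24 and 3.77 without (3.49 ± 0.19). Cdh1, E-cadherin, lay at 6.34, 6.62 and 7.19 against 4.36, 4.61 and 4.47 (2.24 ± 0.16). For both the arms were apart in every pair and the cluster C array was the highest. The junction adhesion molecule F11r (2.17) and Lsr of tricellular junctions (0.76) rose, whereas Cdh3, P-cadherin, fell from 6.93, 6.87 and 7.23 without SKO to 4.81, 4.94 and 4.98 with it (-2.11 ± 0.11). It was the only gene of the list to fall. Ehf, an epithelial ETS factor, was higher by 3.08, Esrp1, a splicing regulator of epithelia, by 0.77 and Grhl2 by 0.40, while Elf3 (0.45), Esrp2 (0.37) and Ovol1 (0.20) did not pass. The surface protease St14 (2.59), its inhibitors Spint2 (2.78) and Spint1 (1.29) and the recycling GTPase Rab25 (1.28) rose, and Ap1m2 (0.62) and Prss8 (0.04) did not pass. Without the cluster C pair 10 genes of the list were higher, and the calls of Esrp1 and Grhl2 were lost (limma adjusted p = 0.146 and 0.114), as they were without the cluster B pair (0.101 and 0.062); Grhl2 was also lost without the control pair (0.11).

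Desmosome and hemidesmosome genes gave 11 rises and no fall among 17, with a median of 1.48. All 6 hemidesmosome genes rose, with pair medians of 1.72, 1.72 and 1.60. Of the 11 desmosome genes 5 rose, with a median of 0.54 and pair medians of 0.33, 0.51 and 1.26, the cluster C pair being the highest. Pair medians of both roles pooled were 1.45, 1.45 and 1.44. Itgb4, the integrin chain of hemidesmosomes, lay at 8.46, 8.50 and 8.40 with SKO and at 5.50, 5.52 and 5.35 without (3.0 ± 0.10). Its partner Itga6 rose by 1.76, the laminin chains Lama3 and Lamb3 by 1.97 and 1.48, and the linkers Dst and Plec by 1.60 and 0.46; the call of Plec was lost without the control or the cluster B pair (limma adjusted p = 0.0765 and 0.0776). Dsp, desmoplakin, rose by 2.82 ± 0.11 and Jup, plakoglobin, by 1.72, while the desmocollin Dsc3 (0.35) and the desmoglein Dsg3 (0.18), both known from stratified epithelia, did not pass.

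Keratins and genes of the cornified envelope gave 17 rises and 2 falls among 25 (median 1.24). All 4 simple epithelial keratins rose, Krt19 by 2.41, Krt8 by 2.20 ± 0.21, Krt18 by 1.34 and Krt7 by 1.24. Krt8 lay at 7.94, 8.53 and 8.82 with SKO and at 6.45, 5.99 and 6.25 without. Of the epidermal type, Krt14 was higher by 2.42 ± 0.13, and the envelope enzyme Tgm3 by 2.33. Loricrin, Lor, fell (-0.98), and Krt15 fell (-0.49). The call of Krt18 was lost without the cluster B pair (limma adjusted p = 0.0532) and with a variance trend and robust empirical Bayes (0.192), and that of Krt15 without the control or the cluster B pair (0.109 and 0.0866). The medians of the pairs were 0.56, 1.18 and 1.51. These genes of simple and of stratified epithelia were thus higher in the same cultures, and in bulk RNA more cells of a type and more RNA per cell cannot be told apart.

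**Figure D3:**
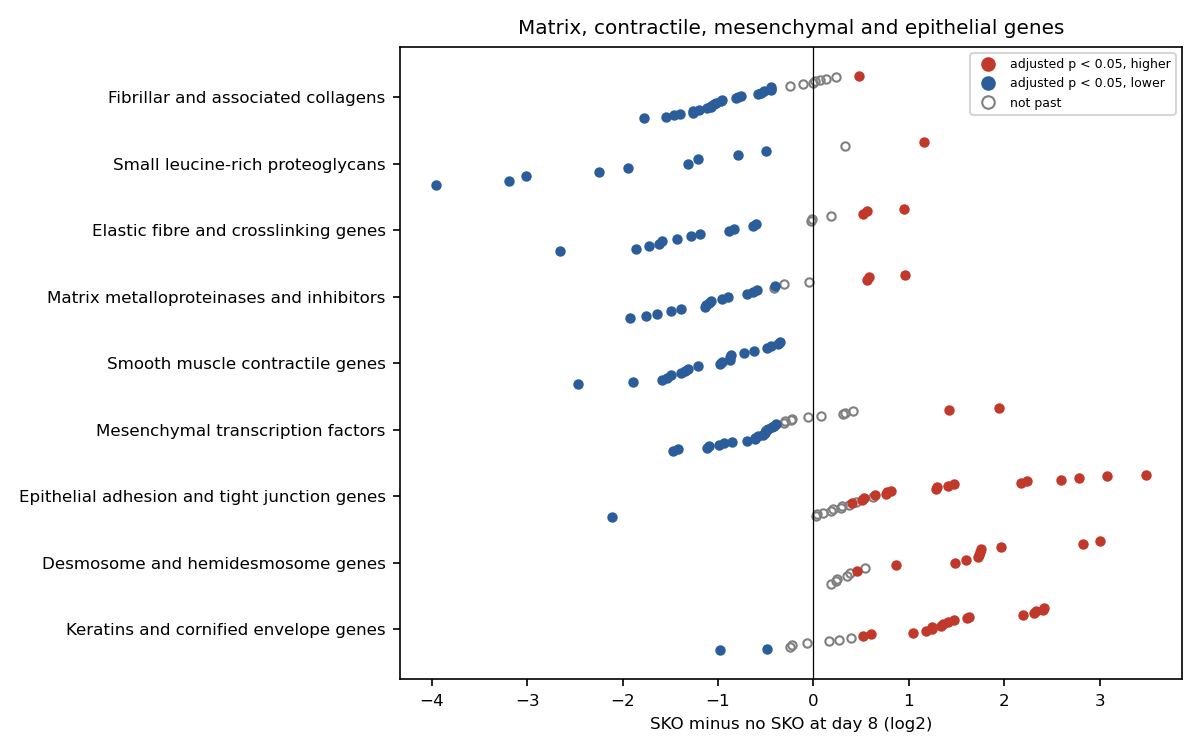
Mean difference over the 3 pairs, SKO minus no SKO at day 8 (log2, horizontal axis), for every measured gene of 9 lists, 1 dot per gene, red where higher and blue where lower at a limma adjusted p under 0.05 and open where not past it. All 20 smooth muscle genes lie to the left of 0, and all genes of the desmosome list lie to the right.

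Mesenchymal genes fell, though not all of them. Of 30 mesenchymal transcription factors 18 were lower (60%, against 13.1% of all genes) and 2 higher. Among the 6 factors known to drive the epithelial-to-mesenchymal transition, Snai2 lay at 7.35, 7.17 and 6.95 with SKO and at 8.60, 8.64 and 8.64 without (-1.47 ± 0.12). Snai1 fell by 1.42 on the log2 scale, Twist2 by 0.61, Zeb1 by 0.51 and Zeb2 by 0.41, and Twist1 (-0.24) did not pass. Arms did not overlap for Snai2, and its lowest value was that of the cluster C array. Meox1 (-1.12), Osr1 (-1.10) and Prrx2 (-0.99) fell, while Meox2 rose by 1.94 and Foxd1 by 1.42. When the cluster C pair was left out, 11 factors were lower. The call of Zeb2 was lost without that pair (limma adjusted p = 0.112) and without the cluster B pair (0.16), and that of Zeb1 without the cluster B pair (0.0668).

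The check of cell identity used 9 fibroblast markers, of which 7 fell and none rose. Their mean level was 9.68 to 9.93 on the arrays with SKO and 10.92 to 11.01 on those without, so the bulk RNA of both arms held high levels of fibroblast genes. Thy1 (-0.15) and Vim (0.02) did not pass. Surface genes of fibroblasts were mixed. Nt5e, the ectoenzyme CD73, lay at 9.48, 9.31 and 9.11 with SKO and at 6.16, 5.97 and 5.93 without (3.28 ± 0.10), and Cd34 rose by 1.59 ± 0.10. Cdh11 (-1.41), Cdh2, N-cadherin (-1.23), Icam1 (-1.09) and the protease Fap (-0.98) fell.

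The collagens fell together. Of 31 genes 23 were lower and 1 higher (74.2% lower, median -0.79), and all 9 fibrillar collagens were lower. Col3a1 lay at 10.50, 10.35 and 10.11 with SKO and at 11.89, 11.82 and 11.90 without (-1.55 ± 0.12), and Col1a1 at 11.55, 11.63 and 11.42 against 12.92, 12.87 and 13.01 (-1.40 ± 0.11). Fibril-associated Col12a1 (-1.46) and Col8a2 (-1.78) were lower too. The basement membrane chains Col4a1 (0.00) and Col4a2 (0.07) did not pass. Processing enzymes fell in part, P4ha3 by 1.12 and P4ha2 by 1.02 on the log2 scale, while the lysyl hydroxylase Plod1 rose by 0.48, a call lost without the cluster B pair (limma adjusted p = 0.0654).

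Small leucine-rich proteoglycans, which coat and space collagen fibrils, showed the lowest median of all lists, at -1.31. Of 11 measured 9 fell and Prelp rose (1.16). Beside Epyc, Kera and Lum, already described, Aspn fell by 2.25, Ogn by 1.94, Fmod by 1.31, Podn by 1.21, Bgn by 0.79 and Dcn by 0.50 on the log2 scale, and Omd (0.33) did not pass. Elastic fibre genes gave 12 falls and 3 rises among 18. Mfap4 lay at 5.54, 5.32 and 5.45 with SKO and at 8.12, 8.00 and 8.16 without (-2.66 ± 0.10), and the microfibril genes Mfap5 (-1.86) and Mfap2 (-1.72) and the crosslinking enzyme Lox (-1.62) followed. Eln, elastin, rose by 0.56, Ltbp4 by 0.52 and Loxl4 by 0.95. Of 19 matricellular and adhesive glycoproteins 11 fell and 4 rose, with Postn, periostin (-2.64), and Thbs4 (-2.61) lowest and the laminin chain Lama4 highest (1.03). Metalloproteinases and inhibitors gave 15 falls and 3 rises among 21. Mmp13 fell by 1.92 on the log2 scale and all 6 ADAMTS proteases were lower, from -0.59 for Adamts5 to -1.39 for Adamts1, whereas the inhibitor Timp3 rose by 0.96. Some smaller changes lost their call when a pair was left out. Fewer arrays also mean less power. Over all genes, leaving out a pair kept 64.5% to 74% of the calls on the higher side and 53.5% to 64.3% on the lower side. Dcn was lost without the control or the cluster C pair (limma adjusted p = 0.0611 and 0.117), Eln and Ltbp4 without the control pair (0.0831 and 0.104) or the cluster B pair (0.0913 and 0.105), and Adamts5 without the cluster B or the cluster C pair (0.0568 and 0.104).

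All 20 smooth muscle contractile genes, which are also the contractile genes of activated fibroblasts, were lower, with a median of -0.97. Cnn1, calponin, lay at 5.49, 5.50 and 5.37 with SKO and at 7.82, 8.01 and 7.93 without (-2.47 ± 0.11). Acta2, smooth muscle actin, lay at 10.68, 10.72 and 10.54 against 12.04, 12.03 and 12.06 (-1.39 ± 0.11), a 2.63-fold lower level of an abundant transcript. Myl9 (-1.89), Mylk (-1.59) and Tagln (-1.54) were also lower. Arms did not overlap for any of the 20, where 24.2% of all genes were lower with SKO without overlap. Leaving out a pair left 16 or 17 of them past the threshold.

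**Figure D4:**
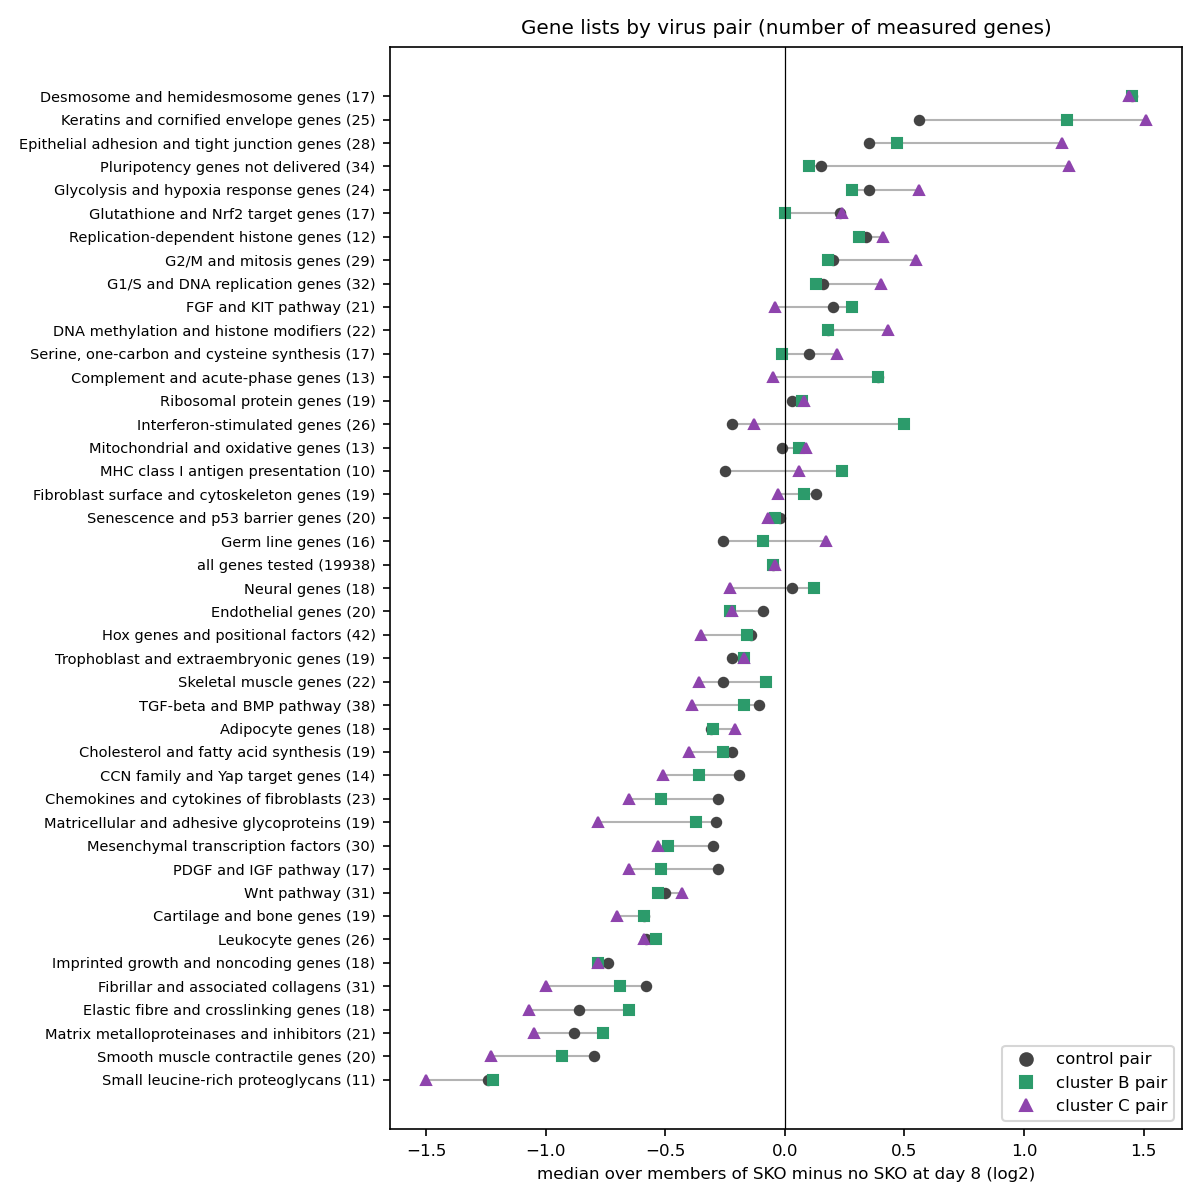
Median over the measured members of each gene list of the difference SKO minus no SKO at day 8 (log2, horizontal axis), with 1 marker per virus pair and a grey line over their range; the number of measured genes stands in brackets. Desmosome and hemidesmosome genes, pooled, are the highest list with the 3 pairs nearly on 1 point (desmosome genes alone have pair medians of 0.33, 0.51 and 1.26), the pluripotency list has its cluster C pair at 1.19 and the other pairs at 0.15 and 0.10, and matrix and contractile lists lie at the bottom.

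Growth factor pathways changed at the level of ligands, receptors and feedback genes. Among PDGF genes, the receptors Pdgfra (-1.51 ± 0.12) and Pdgfrb (-0.99) fell and the ligand Pdgfb rose (0.80). Igf1 lay at 7.31, 7.46 and 7.17 with SKO and at 9.73, 9.74 and 9.80 without (-2.44 ± 0.11), and Igf2 fell by 2.23 on the log2 scale. The receptors Igf1r (1.20) and Insr (0.85) rose. The binding proteins split, with Igfbp2, Igfbp5 (-2.54) and Igfbp4 (-1.88) lower and Igfbp6 (1.53) and Igfbp3 (0.97) higher. In the FGF pathway the ligands Fgf7 (-1.90), Fgf10 (-1.51) and Fgf5 (-0.54) and the receptor Fgfr2 (-2.05 ± 0.10) fell, and 6 of 8 feedback and target genes rose. Etv5, an ETS factor induced by FGF signalling, lay at 8.60, 8.68 and 8.85 with SKO and at 6.50, 6.62 and 6.60 without (2.14 ± 0.10), and Dusp6 (1.26), Dusp4 (1.26), Spry4 (1.13), Spry2 (0.90) and Spred1 (0.60) were higher. Without the cluster B pair the calls of Fgf5 and Spred1 were lost (limma adjusted p = 0.144 and 0.0774), and that of Fgf5 also without the control pair (0.0591).

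Of 38 TGF-beta and BMP genes 11 fell (28.9%, against 13.1% of all genes) and 3 rose (7.89%, against 13.3%). Tgfb3 (-1.82) was lowest and Bmp2 (1.12) highest, and the inhibitor Fst fell by 1.12 on the log2 scale. Of 31 Wnt genes 17 fell (54.8%) and 5 rose (16.1%). The R-spondins, which amplify Wnt signals, were lower for Rspo2, at 6.66, 6.39 and 6.21 with SKO against 9.01, 9.06 and 9.14 without (-2.65 ± 0.13), and for Rspo3 (-1.91), as was their receptor Lgr5 (-1.83 ± 0.15). The inhibitors Dkk3 (-1.38) and Sfrp1 (-1.33) fell as well, and the ligand Wnt2 rose by 1.01. In the group of CCN and Yap target genes 6 of 14 fell and 2 rose, Ccn5 (-2.12), Ankrd1 (-1.80) and Ccn4 (-1.23) following Ccn3.

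Of 26 interferon-stimulated genes 6 were higher (23.1%, against 13.3% of all genes) and 2 lower (7.69%, against 13.1%), with pair medians of -0.22, 0.50 and -0.13. Oas2, which makes the activator of RNase L, lay at 7.21, 7.71 and 7.39 with SKO and at 5.31, 4.59 and 4.81 without (2.53 ± 0.21). Ifit3, by contrast, lay at 5.78, 6.23 and 5.35 against 7.31, 6.35 and 7.54 (-1.28 ± 0.33), and its call was lost without the control or the cluster C pair (limma adjusted p = 0.0654 and 0.115) and with a variance trend and robust empirical Bayes (0.184). Chemokines and cytokines gave 6 rises and 11 falls among 23. Cxcl12 lay at 7.23, 7.12 and 6.91 with SKO against 9.43, 9.45 and 9.54 (-2.38 ± 0.12), Cxcl5 (-1.71) and Il33 (-1.56) were lower, and Ccl8 (1.98 ± 0.10) and Tslp (1.40) were higher. Among complement and acute-phase genes Saa3, an acute-phase protein, lay at 7.50, 7.60 and 8.59 with SKO against 4.53, 4.13 and 4.81 (3.41 ± 0.16), and Cd55, which protects cells from complement, rose by 3.17 ± 0.15, while Hp, haptoglobin, fell (-1.33).

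A part of the cell cycle genes was higher. Of 29 G2/M genes 10 rose and none fell (34.5% higher, median 0.28), with Anln at 1.36 ± 0.12, Ect2 at 0.99 and Mki67 at 0.78. Of 32 G1/S genes 8 rose (25%, against 13.3% of all genes) and 1 fell (3.12%, against 13.1%), with Ccnd1, cyclin D1, at 0.92 ± 0.11 highest and Ccne1 at -0.38 lowest. Among cell cycle inhibitors Cdkn1c (-0.82), Cdkn2b (-0.56) and Cdkn2a (-0.34) fell and Cdkn2d rose (0.49). Of the p53 targets, Perp, also a desmosomal membrane protein, rose by 2.0, and Mdm2 (0.05) did not pass. Without the cluster C pair 6 G2/M and 2 G1/S genes were past the threshold on the higher side. The calls of Ccne1 and Cdkn2a were lost without any 1 of the pairs (limma adjusted p from 0.0505 to 0.188 and from 0.107 to 0.186), and that of Cdkn2d without the cluster B pair (0.0674).

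In metabolism, 13 of 24 glycolysis and hypoxia response genes rose and 2 fell. Aldoc, an aldolase, lay at 8.69, 8.83 and 8.55 with SKO and at 5.61, 5.91 and 5.65 without (2.96 ± 0.10), and the glucose transporters Slc2a3 and Slc2a1 rose by 2.37 and 1.5; Slc2a3 was lost with a variance trend and robust empirical Bayes (limma adjusted p = 0.0735). Of 10 hypoxia response genes 5 rose, Egln3 among them, Vegfa (0.00) did not pass and only Adm, adrenomedullin, fell (-1.69). Of 17 serine, one-carbon and cysteine genes 4 rose, 3 fell and 10 did not pass, with a median of 0.17. Cth, of cysteine synthesis, lay at 9.06, 8.91 and 9.07 against 4.71, 5.03 and 5.06, and Slc7a11, a cystine transporter, is given above. Phgdh, of serine synthesis, fell by 0.93 and Mthfd2, of one-carbon metabolism, by 0.75 on the log2 scale. Of the glutathione genes, Gsta4 (1.94), Gsta3 (1.87), Gsr (1.62) and Nqo1 (1.13) rose, while Gstt1 (-1.07) and Gpx8 (-0.96) fell. Cholesterol and fatty acid synthesis gave 2 rises and 5 falls among 19, with Scd1 highest (0.76), and without the cluster B pair none of the falls passed. No ribosomal protein gene of 19 passed in either direction.

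Chromatin genes rose in part, with 7 of 22 higher (31.8%, against 13.3% of all genes) and none lower. The Polycomb subunit Suz12 rose by 1.30, the demethylases Tet2 and Kdm6a by 1.03 each, and Ezh2 by 0.50, while Dnmt3a (-0.17), Dnmt1 (0.12) and Tet1 (0.16) did not pass. With the cluster C pair left out 4 were higher, and Ezh2 was lost (limma adjusted p = 0.103), as it was without the control pair (0.0596). Imprinted genes were mostly lower, 11 of 18 against 1 higher. Mest lay at 8.56, 8.52 and 8.39 with SKO and at 10.82, 10.76 and 10.76 without (-2.29 ± 0.10). Plagl1 (-2.0), Dlk1 (-1.95 ± 0.11) and Peg3 (-1.55) fell, and Peg10 rose (1.19). Hox and positional genes moved less, with 11 of 42 lower (26.2%, against 13.1% of all genes), 3 higher (7.14%) and a median of -0.17. Without the cluster B pair 6 of them were lower. Of 19 cartilage and bone genes 11 fell (57.9%), Comp (-2.38) and Sox9 (-1.34) among them.

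Markers of other cell types were read beside these results. Leukocyte genes were lower for 17 of 26 and higher for 2, and their mean level was 4.51 to 4.59 on the arrays with SKO and 4.90 to 5.10 without. Lyz2 (-1.30), Lcp1 (-1.02) and C1qc (-1.01) were lowest, and Itgam (1.41) and Laptm5 (1.14) were higher. Endothelial genes were higher for 2 of 20 and lower for 6 (30%, against 13.1% of all genes), with a median difference of -0.13. Their mean levels were 4.68 to 4.76 with SKO and 4.67 to 4.76 without, and these means include Tek. Tek, the angiopoietin receptor, lay at 8.78, 8.64 and 8.60 against 4.95, 4.96 and 5.37 (3.58 ± 0.14), while Pecam1 (0.03) and Cdh5 (-0.06) did not pass. Neural genes gave 6 rises and 4 falls among 18, with Nefl (2.15) and Stmn2 (1.81) highest, adipocyte genes 3 and 7 among 18, with Cd36 (1.67) highest and Fabp4 (-1.46) lowest, skeletal muscle genes 1 and 6 among 22, and trophoblast genes 2 and 2 among 19. Germ line genes gave 2 rises and 1 fall among 16, with Piwil2 highest (1.40). Over all genes 13.3% rose and 13.1% fell. The shares of trophoblast genes (10.5% and 10.5%) and germ line genes (12.5% and 6.25%) were not above these. The part of other cell types in the results above was not tested.

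The day 8 difference was set against the same difference at day 4 within each virus, which uses all 12 arrays and asks where the effect of SKO had grown or shrunk. With 1 difference of differences per virus, 236 genes passed (1.18% of those tested), 155 upward and 81 downward. Of these 213 were also called at day 8, and for 204 the change from day 4 had the sign of the day 8 difference. Some of the 204 had the opposite sign at day 4, such as Krt7 (-0.70 at day 4 and 1.24 at day 8). Without the cluster C pair 92 genes passed, without the control pair 150 and without the cluster B pair 165.

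**Figure D5:**
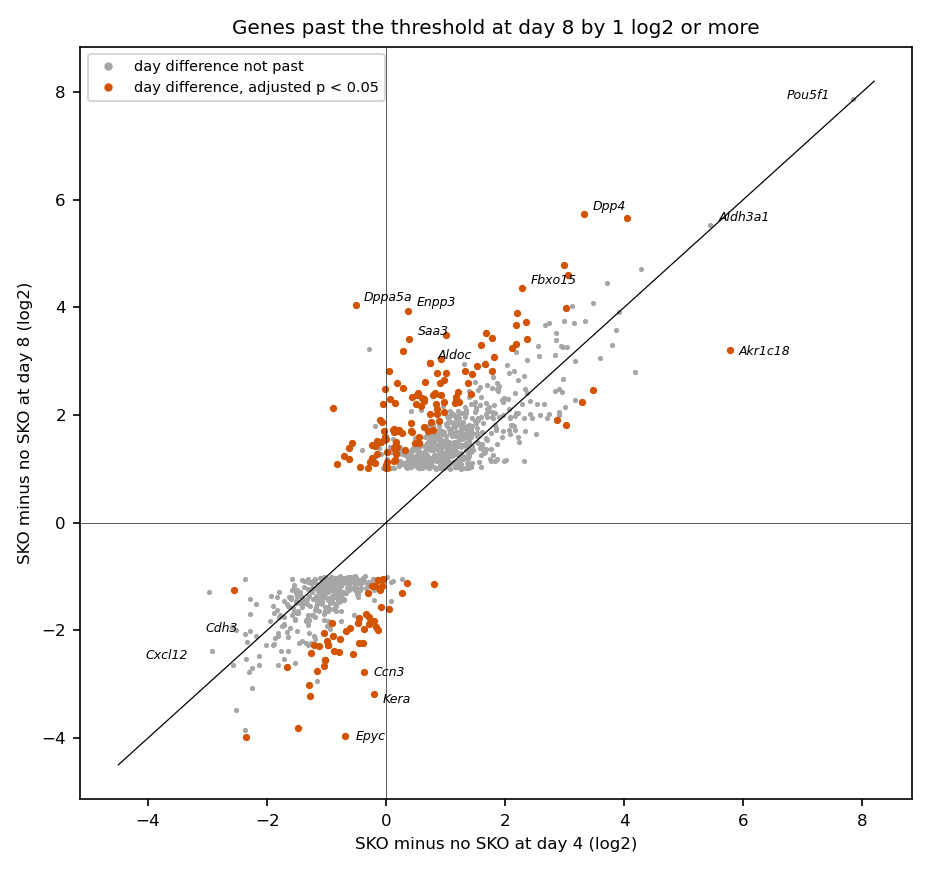
Mean difference SKO minus no SKO at day 4 (horizontal axis, log2) and at day 8 (vertical axis, log2) for the 1138 genes called at day 8 with a size of at least 1, 1 dot per gene, in orange for the 176 whose day difference passed at a limma adjusted p under 0.05; the line marks equal differences. Pou5f1 and Aldh3a1 lie on the line, Enpp3 (0.37) and Saa3 (0.39) lie near 0 at day 4, Epyc lies at -0.69 at day 4, and Akr1c18 lies below the line.

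Some genes named here differed far more at day 8 than at day 4. Enpp3 differed by 0.37 at day 4 and 3.94 at day 8, Saa3 by 0.39 and 3.41, Aldoc by 0.73 and 2.96 and Epcam by 1.01 and 3.49. On the lower side, Kera differed by -0.20 at day 4 and -3.19 at day 8, Ccn3 by -0.38 and -2.78, Epyc by -0.69 and -3.96 and Igf1 by -0.55 and -2.44. Others whose day difference passed were already far apart at day 4, among them Aspa (4.05), Dpp4 (3.33), Fbxo15 (2.28) and Abi3bp (-2.36). A second group was already at its day 8 size. Pou5f1 differed by 7.85 at day 4, Aldh3a1 by 5.44, Crym by 3.91, Itgb4 by 3.18, Tek by 3.87 and Cdh3 by -2.19, and none of these 6 passed in the day difference. The third group was larger at day 4. Akr1c18, a steroid dehydrogenase, differed by 5.78 at day 4 and by 3.20 at day 8, and its day difference of -2.59 passed (limma adjusted p = 0.0049). Among lists, the pluripotency median was -0.08 at day 4 against 0.43 at day 8, the desmosome and hemidesmosome median 0.59 against 1.48, the keratin median 0.34 against 1.24 and the proteoglycan median -0.69 against -1.31. The smooth muscle median was near equal on both days, at -0.99 and -0.97, and the G1/S median was higher at day 4 (0.67 against 0.22).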

How the data were processed

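RNA of 12 cultures was hybridised to Affymetrix whole-transcript arrays after labelling with biotin, per the labels' protocols. For each of 28853 probe sets the deposited table gives a log2 value, and the submitters' processing notes name RMA and Partek, without versions. The genome build is not given in the sources used here. RMA pulls arrays to a common distribution, so shifts common to most genes are hidden. The number of arrays limits the precision.

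Gene names came from the platform annotation (21789 with 1 gene, 1621 with several, 5443 with none among the probe sets), and the brightest probe set of each of 19938 genes was tested with limma 3.58.1 in R 4.3.3. The fit had virus as a block and 2 residual degrees of freedom, to which empirical Bayes added 5.32. The p-values measure the spread over these 3 pairs, and nothing says that they were separate experiments. Arrays are paired by the virus that the labels give, although deviations of arrays with the same virus correlated by 0.03, -0.02 and 0.03 (11091 genes). Day differences were tested with limma on 3 differences of differences.

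The members, gene lists (42) and alternatives were chosen with earlier results of these data known. Genes named are the 15 largest rises and falls past the threshold with 1 sign in all pairs (predicted genes, receptor families and small RNAs left out), the 4 highest and 4 lowest members of each list, every member of roles with up to 8 genes, the delivered factors and Myc, and the 5 called genes with the widest range over pairs; genes outside this rule were picked after their values were seen. The fits were tested on simulated data, where false calls ran above the nominal share and most of the smallest changes were missed. For the day difference most changes of 1 log2 unit were missed as well. For the day 8 comparison, the simulation changed far fewer genes than were called in the data. The share of changes it missed may therefore differ from that in these data. Tables and figures were made with Python 3.11.15, numpy 2.4.6, pandas 2.3.3 and matplotlib 3.10.9. Alternatives changed the samples in the fit, the block, the empirical Bayes step, the normalization, the centring, the filter on dim genes, the probe sets, the minimum change and the pairs used.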

Additional observations from a re-analysis of the deposited data

Results flagged for a closer look

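For 60 of the genes named in the text, the SKO difference at day 8 departed from that at day 4 by a test of the difference itself (limma over 3 viruses, adjusted p under 0.05). Values are the day 8 difference minus the day 4 difference, in log2 units. Each group held 3 arrays, so no array was tested as standing apart.

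At day 8 the difference lay further up for genes of stem and germ cells, namely Dppa5a (4.55), Fbxo15 (2.08), Zfp42 (1.66), Tfcp2l1 (1.49), Apela (2.24) and Piwil2 (1.22). The epithelial and keratin genes Epcam (2.47), Spint2 (1.93), Krt7 (1.94), Krt19 (1.87), St14 (1.69), F11r (1.59), Rab25 (1.43), Krt8 (1.37), Ehf (1.26), Krt14 (1.21), Tgm3 (1.16), Cdh1 (1.0) and Lamb3 (0.93) did so too. Dppa5a, Zfp42 and Rab25 had differed by -0.51, -0.16 and -0.15 at day 4, and Krt7 differed by -0.70 at day 4 and by 1.24 at day 8. Other genes with a higher difference at day 8 were Enpp3 (3.57), Saa3 (3.01), Tac2 (2.77), Npy (2.43), Dpp4 (2.40), Aldoc (2.24), Egln3 (1.85), Peg10 (1.81), Trh (1.80), Aspa (1.60), Slc2a1 (1.58), Fetub (1.55), Msln (1.36), Tspan8 (1.14), Liph (1.07) and Ano1 (0.95). For Enpp3 the limma adjusted p was 0.00165, among the lowest of these genes. Others lay just under the threshold, such as Trh (0.0495), Liph (0.0469), Cdh1 (0.043) and Dppa5a (0.0414).

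On the lower side the matrix genes Epyc (-3.27), Kera (-2.99), Dpt (-2.34), Lum (-1.71), Abi3bp (-1.63), Mfap4 (-1.62), Ibsp (-1.59), Comp (-1.51), Col8a2 (-1.32), Fmod (-1.02) and Mfap5 (-0.94) lay further down than at day 4. Secreted and signalling genes in this direction were Ccn3 (-2.40), Nrk (-1.94), Igf1 (-1.89), Lgr5 (-1.62), Igfbp4 (-1.60), Fst (-1.47), Il33 (-1.47), Ptx3 (-1.40) and Gas6 (-1.16). Plagl1 (-1.87), Mest (-1.17), Fap (-1.03) and Galnt13 (-1.0) were the others; Fap had differed by 0.05 and Fst by 0.35 at day 4, as had Slc2a1 by -0.08 and Peg10 by -0.62 on the other side. Akr1c18 (-2.59) was higher with SKO on both days and closer to the arm without SKO at day 8. Over all genes tested 236 passed, and 92 without the cluster C pair.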

How the results depend on the processing

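For the day 8 comparison, the counts of genes higher and lower stayed within 1.5 times the values given above under every alternative but a minimum change and leaving out a pair. The paired analysis above keeps the virus as a replicate block; with no replicate block 2832 genes were higher and 2876 lower, and the calls of Nr0b1, Mybl2, Grhl2 and Ccne1 were lost (limma adjusted p = 0.0677, 0.0612, 0.0631 and 0.0586). A minimum change of 1.5-fold left 634 higher and 366 lower. Leaving out each pair in turn gave 1773 to 2046 higher and 1507 to 1886 lower. For the day difference, 236 genes passed, against 592 in the fit over all 12 arrays, 997 with a variance trend and robust empirical Bayes, 710 with dim genes left out and 92 to 165 with a pair left out. Of 2815 values of called genes named here over the alternatives, 140 lost the call, 68 under the minimum change and 44 without a pair. None changed sign, but for most alternatives this was fixed in advance. Those that changed only the spread kept the same estimate. Called genes had 1 sign in all pairs, so leaving out a pair could not turn it. The median over all genes was -0.069, -0.039 after quantile normalization and -0.06 with equal array medians. The cause of these shifts was not tested. Few residual degrees of freedom, and signals near the lower quartile of the arrays, limit what could be called.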

Other observations

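Several strongly changed genes belong to none of the lists, and the ones given here were picked after their values were seen. Podxl, a sialomucin of podocytes and pluripotent cells, lay at 8.30, 8.39 and 8.48 with SKO and at 4.78, 4.56 and 4.57 without (3.75 ± 0.12), and Msln, mesothelin, was higher by 3.72 ± 0.11. Genes of secreted peptides rose beside Trh. Apela, a ligand of the apelin receptor, rose by 2.96 ± 0.26, Tac2 of the tachykinin family by 2.82 ± 0.17 and Npy, neuropeptide Y, by 2.60 ± 0.16. The embryonic globin Hbb-y rose by 3.30 ± 0.14, and as globin genes are near copies of each other its level is uncertain. Tnmd, tenomodulin of tendon, fell by 2.53 on the log2 scale, Gas6 by 2.42, the collagen-binding integrin Itga11 by 2.28 and Ptx3, a pentraxin, by 2.17.

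Gene families left out by the naming rule were called less often than all genes together, a difference that was not tested. Of 300 microRNA genes 13 were higher and 27 lower (13.3% in either direction), of 1027 olfactory receptors 7 and 46 (5.16%), of 167 vomeronasal receptors 0 and 9 (5.39%), and of 52 small nucleolar RNAs 7 and 0 (13.5%), against 26.4% of all genes. Among the 5443 probe sets without a gene name 246 were higher and 411 lower (12.1%). These calls came from a separate fit of all 28853 probe sets, in which 3030 were higher and 2940 lower.

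The cluster C pair lay more than 1 log2 unit above both other pairs for 82 genes and below both for 15. The control pair did so for 27 and 29 genes, and the cluster B pair for 22 and 11.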
